A study of Sus scrofa with 6 samples.

Results

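Calcium release in skeletal muscle was followed through RYR1, HRC and CAMK2G on Affymetrix arrays of pig back muscle. The genes were taken as every probe set, the group of short probes that reads 1 transcript, whose only gene symbol in the platform annotation was RYR1, HRC or CAMK2G. This gave 3 of 6765 named genes and 4 of 23999 probe sets: Ssc.8.1.S1_at for RYR1, Ssc.25389.1.S1_at for HRC, and Ssc.2491.1.S1_at and Ssc.5879.4.S1_a_at for CAMK2G. The rule uses names alone, but the genes were chosen with earlier results of these data known. The samples were longissimus dorsi, a long back muscle, from 3 Northeastern Indigenous boars and from 3 Large White boars, the control breed. All boars were aged 150 days, were reared alike in feed and housing, and received no treatment that the labels name. Each boar gave 1 array, so the spread within a breed is the spread between animals together with that of sampling and array. The comparison asked how the level of each gene differed between the breeds, as Northeastern Indigenous minus Large White, in log2 intensity.

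When a nerve impulse reaches a muscle fibre, the voltage sensor in the surface membrane opens RYR1, the ryanodine receptor of the sarcoplasmic reticulum, and stored calcium flows out to start contraction. HRC is a histidine-rich protein inside that store that binds calcium and interacts with the release and uptake machinery. CAMK2G encodes the gamma subunit of the calcium/calmodulin-dependent kinase CaMKII, which is switched on by the released calcium and passes the signal to channels, pumps and gene regulators. In pigs, RYR1 is also known as the halothane gene, since an inherited change in its protein causes malignant hyperthermia and pale, soft meat. The arrays measured the level of the RYR1 transcript, not which allele an animal carried.

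All 3 genes were dimmest on the same array, Large White replicate 1, next dimmest on Large White replicate 3, and at closely matched levels on the other 4 arrays. The mean was higher in Northeastern Indigenous boars for all 4 probe sets, by 0.87 to 2.49 log2 units, and none passed the test. The breeds overlapped in every case because Large White replicate 2 was as bright as the Northeastern Indigenous arrays. On Large White replicate 1, RYR1 lay more than 5 log2 units under the mean of the other breed, and both CAMK2G probe sets a little over 2. HRC lay 6.38 under it, but that reading was below the filter on dim probe sets and its distance depends on the scale used.

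Signals of muscle and other cell type lists differed between the Large White arrays. The part of this difference in the values that follow was not tested. The sarcomere list, structural genes of the contractile apparatus with 14 of 20 genes measured, was set against its own mean over the Northeastern Indigenous arrays, and stood at -4.10, 0.05 and -0.74 log2 units on Large White replicates 1, 2 and 3. The adipocyte list, with 7 of 12 genes measured, was at 3.70, -0.20 and 2.80 on the same arrays. On Large White replicate 1, 6 of its genes were above every Northeastern Indigenous array and 1, AGPAT2, was below. Northeastern Indigenous arrays lay between -0.10 and 0.12 for the sarcomere list and between -0.52 and 0.32 for the adipocyte list. Leukocyte markers (13 of 19 genes) were at 2.38, 0.94 and 2.21 and matrix genes (9 of 12 genes) at 2.01, 0.43 and 1.90 on Large White replicates 1, 2 and 3. On the Northeastern Indigenous arrays these lists lay between -0.43 and 0.75 and between -0.34 and 0.30. Of the matrix genes, 8 were above every Northeastern Indigenous array on Large White replicate 1 and 1, COL3A1, was below. The summed deposited intensity of the sarcomere list ran from 21053 to 322601 on the Large White arrays and from 274892 to 304800 on the others. That of the adipocyte list ran from 5494 to 42333 and from 5832 to 8600. No defining marker was at 0. Among them DES, the muscle intermediate filament, read 7.26, 13.23 and 11.59 on Large White replicates 1, 2 and 3, and ADIPOQ, the fat-cell hormone adiponectin, read 13.64, 7.22 and 12.50. The library labelled Large White replicate 1 thus carried less of the muscle signal than the other arrays, with 14 of 14 sarcomere genes under every Northeastern Indigenous array. In a bulk sample, fewer muscle fibres and less RNA per fibre cannot be told apart.

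RYR1, the release channel, read log2 intensities of 7.0, 13.20 and 11.58 on Large White replicates 1, 2 and 3. On Northeastern Indigenous replicates 1, 2 and 3 it read 12.73, 12.48 and 12.96. Large White replicate 2 was the brightest of the 6 arrays and replicate 1 by far the dimmest, so the Large White boars enclosed all Northeastern Indigenous boars. In deposited units the same probe set ran from 147.5 on Large White replicate 1 to 10743 on replicate 2. The breed means were 10.59 ± 3.21 for Large White and 12.72 ± 0.24 for Northeastern Indigenous boars (SD, n = 3 per breed). The difference of 2.13 ± 1.41 log2 units (SE; 95% interval -1.19 to 5.45) had an adjusted p of 0.393 in limma, and the exact permutation p was 0.4 (two-sided, n = 3 per breed). With 3 animals against 3 the permutation test cannot go below 0.1. Without Large White replicate 1 the difference was 0.34, with an interval of -0.64 to 1.31. The 4 brightest arrays, which were Large White replicate 2 and the Northeastern Indigenous arrays, lay within 0.72 log2 units of each other. Their order is therefore not separated beyond the spread of Large White.

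HRC, the calcium binder of the store, read 3.0 on Large White replicate 1. This is 3.72 log2 units under that array's median and below the filter level of 5.85, and the deposited intensity was 8.58. Large White replicates 2 and 3 read 9.61 and 8.06. Northeastern Indigenous replicates 1, 2 and 3 read 9.84, 9.33 and 8.97, so Large White replicate 2 fell inside their range and replicates 1 and 3 below it. Means were 6.89 ± 3.46 for Large White and 9.38 ± 0.44 for Northeastern Indigenous boars (SD, n = 3 per breed). The difference of 2.49 ± 1.52 log2 units (SE; 95% interval -1.11 to 6.08) had an adjusted p of 0.364 in limma and an exact permutation p of 0.3 (two-sided). It was 0.54 without Large White replicate 1. Adding 50 to every intensity before the logarithm, which compresses dim values, gave 1.53. The size of the HRC difference therefore depends on how the dim reading is scaled.

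CAMK2G was read by a pair of probe sets, both dimmest on Large White replicate 1 and brightest on replicate 2. The brighter, Ssc.2491.1.S1_at, read 8.88, 11.36 and 10.70 on Large White replicates 1, 2 and 3 and 11.20, 11.22 and 11.12 on Northeastern Indigenous replicates 1, 2 and 3. The Northeastern Indigenous boars differed among themselves by 0.10 log2 units in all, and every Large White boar lay outside that narrow range, 2 below it and 1 above. Its difference was 0.87 ± 0.60 (SE; 95% interval -0.54 to 2.27), with an adjusted p of 0.406 in limma and an exact permutation p of 0.4 (two-sided, n = 3 per breed). The other probe set, Ssc.5879.4.S1_a_at, whose suffix marks probes shared by alternative transcripts of the gene, read 8.07, 10.67 and 9.23 in Large White boars and 10.41, 10.39 and 10.16 in Northeastern Indigenous ones. Its difference was 1.00 ± 0.61 (SE; 95% interval -0.44 to 2.44), with an adjusted p of 0.364 in limma and an exact permutation p of 0.4. SDs were 1.28 and 1.30 in Large White boars and 0.05 and 0.14 in Northeastern Indigenous ones for the brighter and the dimmer probe set (n = 3 per breed). Without Large White replicate 1 the differences were 0.15 and 0.37.

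**Figure D1:**
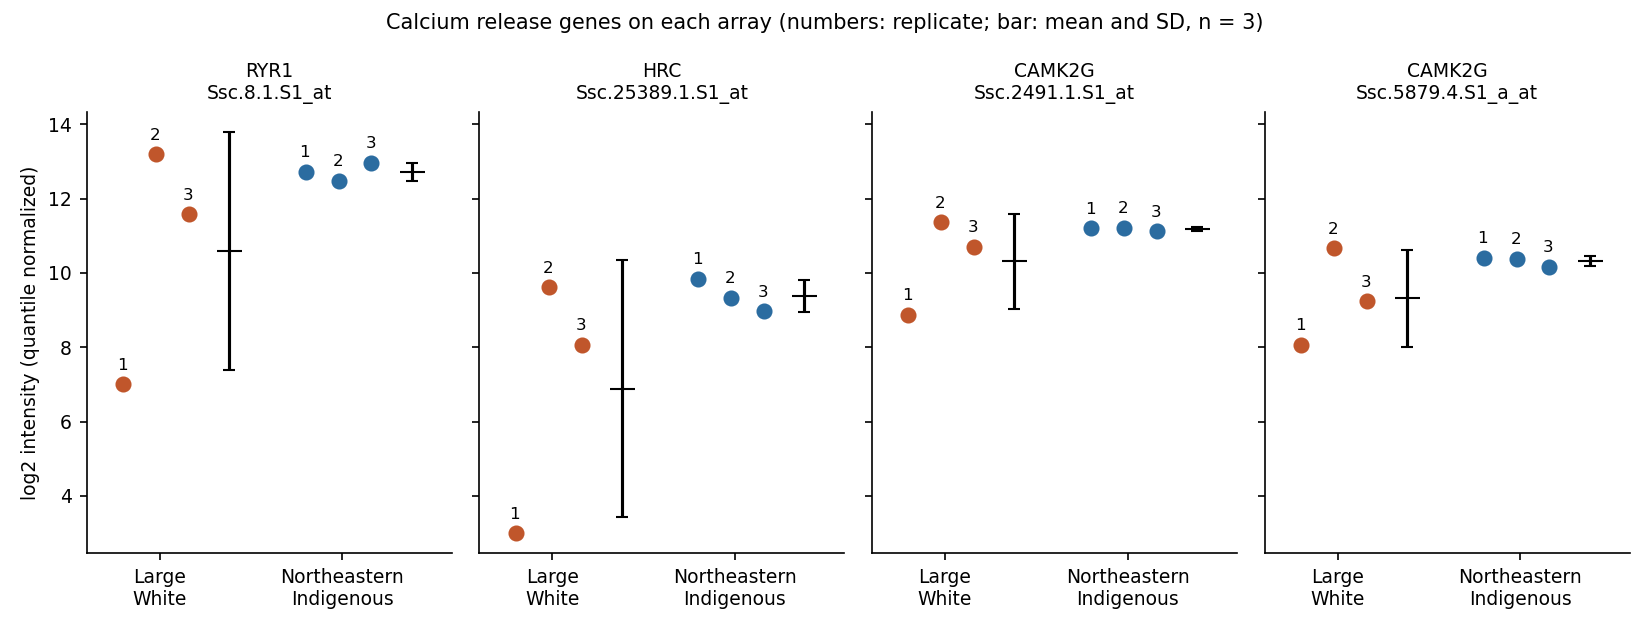
Log2 intensity (vertical axis, quantile normalized) of the 4 probe sets on each array, by breed, with replicate numbers beside the points and a black bar for the mean and SD (n = 3). Large White replicate 1 is lowest in all 4 panels, from 3.0 for HRC to 8.88 for the brighter CAMK2G probe set, and Large White replicate 2 lies at or near the top.

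Read against all probe sets, these counts are as follows. Of the 4 probe sets, all of which passed the filter on dim probe sets with both breed means above it, 0 were called at an adjusted p under 0.05, where limma called 0% of 14399. At an unadjusted p under 0.05 it was again 0 of 4, against 18.8% of all probe sets. Breeds without overlap occurred in 0 of 4, against 25.1%. Large White replicate 1 under replicate 3, and both under every Northeastern Indigenous array, held for 4 of 4, and for 25.7% of all probe sets. All 4 had Large White replicate 1 more than 2 log2 units under the Northeastern Indigenous mean, which 6.56% of probe sets had, and a Large White SD over 1, which 16.3% had. The genes were chosen with earlier results of these data known, and 2 of the 4 probe sets read CAMK2G. These counts and shares therefore only describe the arrays, and why the 4 probe sets had this pattern was not tested. On Large White replicate 1 the 14 sarcomere genes also lay under the Northeastern Indigenous mean, by 0.70 (CAPZB) to 5.95 (DES).

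Leaving out Large White replicate 2, the array that resembled the Northeastern Indigenous arrays, raised the differences to 3.43 for RYR1, 3.85 for HRC, and 1.39 and 1.67 for the brighter and dimmer CAMK2G probe sets. Only the dimmer CAMK2G probe set was then called (adjusted p of 0.020 in limma, on 2 Large White arrays), while limma called 4421 of 14399 probe sets on those 5 arrays. Against Large White replicate 2 alone, with replicates 1 and 3 left out together, the sign turned for every probe set: -0.47 for RYR1, -0.23 for HRC, and -0.18 and -0.35 for CAMK2G. None of these passed, and that comparison has a single Large White animal, assumed to vary like the Northeastern Indigenous ones. The higher mean in Northeastern Indigenous boars thus rested on Large White replicates 1 and 3.

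**Figure D2:**
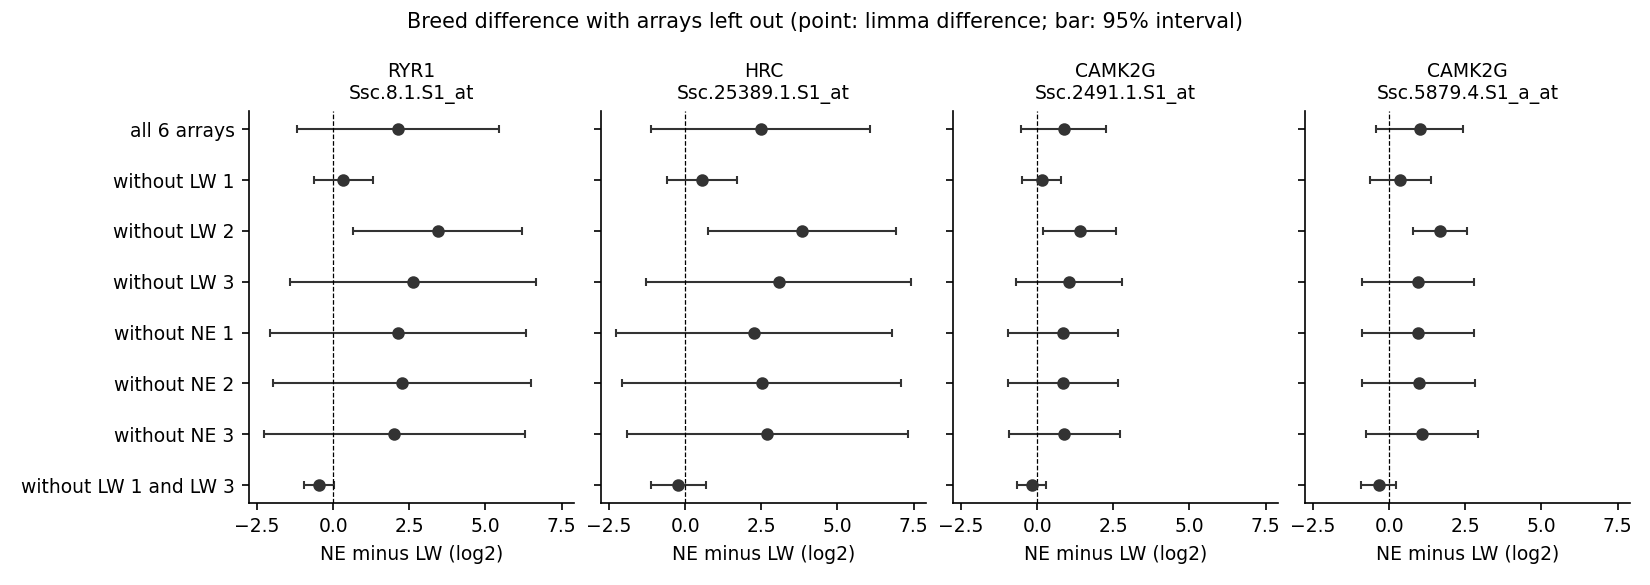
Breed difference (horizontal axis, Northeastern Indigenous minus Large White, log2 units, the same scale in each panel) from limma with all 6 arrays and with arrays left out, with 95% intervals as bars. For RYR1 the point moves from 2.13 to 0.34 without Large White replicate 1 (LW 1) and to -0.47 without Large White replicates 1 and 3.

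The level of each gene was also set against the sarcomere list on the same array. Large White replicate 1 lay 5.72 log2 units under the Northeastern Indigenous mean for RYR1, beside 4.10 for the sarcomere list mean. For CAMK2G it lay 2.30 and 2.25 under. The 6.38 of HRC has no firm place in this order, since with 50 added to every intensity HRC lay 3.63 under, beside 3.97 for the list and 5.26 for RYR1. On Large White replicate 3 the distances were 1.14 for RYR1, 1.32 for HRC, and 0.48 and 1.09 for CAMK2G, beside 0.74 for the list. After subtracting the list mean array by array, the breed difference was 0.53 for RYR1 and 0.89 for HRC, and it was -0.73 and -0.60 for CAMK2G. The exact permutation p-values were 0.6, 0.4, 0.2 and 0.5 (two-sided, n = 3 per breed). With 50 added to every intensity the value for HRC was -0.024. Without Large White replicate 1 the values came to -0.01, 0.20, -0.20 and 0.02, so the contrast between RYR1 and CAMK2G lay on that array. The part of muscle content in the breed differences was not tested beyond these values.

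Compared with the fast fibre list, contractile genes of rapid fibres with 6 of 9 measured, the differences were 1.11 for RYR1, 1.46 for HRC, and -0.16 and -0.03 for CAMK2G. MYH2, TNNT3 and MYLPF of that list had Northeastern Indigenous means of 15.12, 15.15 and 15.16. CKM and MYOZ1 of the sarcomere list had Northeastern Indigenous means of 15.22 and 15.15. Whether the bright end of the scale compressed the distances of these genes, and so the means of both lists, was not tested. On Large White replicate 1 the fast fibre list mean was at -2.81, closer to CAMK2G than to RYR1. Its genes were uneven there, from 0.68 log2 units under for TNNC2 to 6.30 under for ATP2A1. Of the Z-disc and filament genes DES, ACTN2 and FHL1, DES lay 5.95 and ACTN2 5.52 log2 units under the Northeastern Indigenous mean on that array, near RYR1. FHL1 lay 0.94 under it. Muscle genes thus spanned a wide range of distances on Large White replicate 1.

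**Figure D3:**
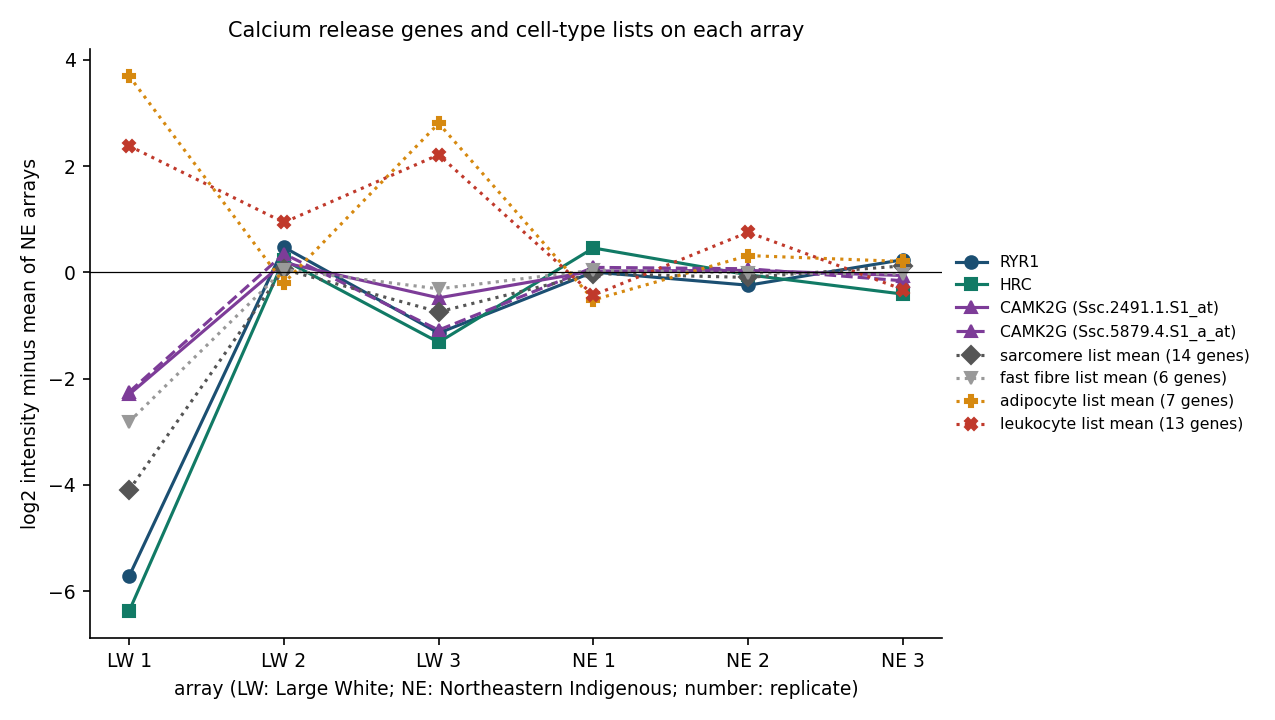
Log2 intensity minus the mean of the Northeastern Indigenous arrays (vertical axis) on each array (horizontal axis) for the 4 probe sets (solid or dashed lines) and for means of 4 cell-type lists (dotted lines). On Large White replicate 1 (LW 1) HRC is at -6.38, RYR1 at -5.72, the sarcomere list at -4.10 and CAMK2G near -2.3, while the adipocyte list is at 3.70.

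Genes with the most similar pattern were found as those with the smallest root-mean-square distance to a gene over the 6 arrays, after each profile was centred on its own mean, among 5292 named genes. For RYR1 they were MYOM1 (0.12 log2 units), a protein of the sarcomere's M-band, DES (0.23), CAMK2B (0.26), the beta subunit of CaMKII, ATP2A1 (0.27), the calcium pump of the sarcoplasmic reticulum in fast fibres, and FITM1 (0.29), a lipid droplet protein of muscle. For HRC they were ATP2A1 (0.19), PLCD4 (0.30), a phospholipase, GPRC5C (0.31), FITM1 (0.38) and CAMK2B (0.39). For CAMK2G they were TOB1 (0.08), an inhibitor of cell proliferation, GPD1 (0.11), a glycerol phosphate dehydrogenase, GPI (0.12), a glycolytic enzyme, PPP3CB (0.12), a catalytic subunit of calcineurin, and DCAF6 (0.12). The median distance over all candidates was 2.15 for RYR1, 2.37 for HRC and 0.91 for CAMK2G. RYR1 and HRC were 0.41 apart from each other, with 14 genes closer to RYR1 than HRC was. The CAMK2G probe sets were 0.25 apart from each other with 68 genes closer to the brighter probe set than the dimmer was, and 1.29 to 1.53 from RYR1 and HRC. Each of the 3 genes departed most from its mean on Large White replicate 1, so that array weighs most in these distances. HRC, CAMK2B, PLCD4 and GPRC5C read from 2.27 to 3.0 there, below the filter level, so their distances depend on how dim readings are scaled.

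The rest of the calcium system was read from 7 gene lists with 83 genes in all, of which 45 were on the array and 38 passed the filter. Of the 38 genes, 0 passed the adjusted threshold in limma, and 6 higher and 1 lower had an unadjusted p under 0.05, which is 18.4% against 20.8% of all 5438 named genes. The difference was positive for 26 genes (68.4%, against 54.7% of named genes), with a median of 0.47 beside 0.09 over named genes. Quantile normalization set the median difference of all kept probe sets at 0.10, which was -0.0065 on the deposited scale, where the calcium genes had a median of 0.53. Their median was 0.19 without Large White replicate 1. Without Large White replicate 2 limma called 11 of the 38 (28.9%), against 34% of named genes, and without Large White replicates 1 and 3 it called 0. The breeds did not overlap in 9 of the 38 (23.7%), against 28.3% of named genes, so neither share was above that of named genes. On Large White replicate 1, 14 of the 38 genes lay more than 2 log2 units under the Northeastern Indigenous mean and 17 lay within 1 of it. RYR1, HRC, ATP2A1, CAMK2B and PPARGC1A lay more than 5 under it, as did 0.535% of all probe sets, though HRC, CAMK2B and PPARGC1A were below the filter level on that array.

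In the release list, with 9 of 21 genes measured, RYR1 differed by 2.13 with all arrays and by 0.34 without Large White replicate 1. CALM2 and CALM3, which encode calmodulin, differed by -0.10 ± 0.21 and 0.47 ± 0.63, and FKBP1A, the small protein that steadies the closed channel, by -0.12 ± 0.32 (SE). FKBP1A read 11.13, 10.41 and 11.20 on Large White replicates 1, 2 and 3, and CALM2 read 13.43, 13.14 and 13.34, so neither was dim where RYR1 was. CALM3 was, at 9.70, 12.32 and 11.09. Probe sets of CALM3 did not agree in sign, running from -0.29 to 0.93 with the dim set included. The list had a median of -0.04, with 4 genes positive and 5 negative, and the median was 0.20 on the deposited scale and 0.34 with arrays centred on their medians. CACNA2D1, a subunit of the voltage-gated calcium channel, and ITPR3, a receptor for inositol trisphosphate, were chosen for mention after their values were seen. CACNA2D1 read 5.24, 7.08 and 6.08 in Large White boars and 7.73, 8.65 and 7.86 in Northeastern Indigenous ones, a difference of 1.95 ± 0.51. ITPR3 differed by 1.09 ± 0.31, with 5.88, 6.10 and 5.94 against 6.97, 7.43 and 6.77. In both, Large White replicate 2 lay under every Northeastern Indigenous array, unlike for RYR1, HRC and CAMK2G, so the breeds did not overlap. The adjusted p in limma was 0.224 for each. For CACNA2D1, Large White replicate 2 was still 1.84 log2 units above replicate 1, the dimmest array, as it was for RYR1. The CACNA2D1 reading on Large White replicate 1 was below the filter level, and the Large White readings of ITPR3 were just above that level. A dimmer ITPR3 probe set, under the filter, differed by 0.39 ± 0.65 (SE), and its breeds overlapped. Without Large White replicate 1 ITPR3 differed by 1.04 and CACNA2D1 by more than that.

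Within the store list 3 of 8 genes were measured, and HRC was the only 1 of them that was dim on Large White replicate 1 by more than 1 log2 unit. CALR, calreticulin, read 9.69, 10.19 and 10.05 in Large White boars and 9.88, 9.99 and 9.84 in Northeastern Indigenous ones, a difference of -0.07 ± 0.25 (SE). CALU, calumenin, a calcium binder of the secretory pathway in many cell types, differed by -0.90 ± 0.45, with 12.71 on Large White replicate 1 and 10.89 on replicate 2. CALR was lowest on Large White replicate 1, by a small margin, and CALU was highest there. The median of the list was -0.07.

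Among uptake genes, with 4 of 7 measured, ATP2A1 came closest to RYR1 and HRC in its pattern. It read 6.82, 13.32 and 11.77 on Large White replicates 1, 2 and 3 and 13.26, 13.07 and 13.03 on the Northeastern Indigenous arrays, a difference of 2.48 ± 1.48 (SE). PLN, phospholamban, the brake on the slow-fibre pump, differed by 1.55 ± 0.93, and SLN, sarcolipin, the regulator of the fast-fibre pump, by 0.47 ± 0.36. SLN read 13.77 on Large White replicate 1 and 15.14 to 15.16 on all other arrays. Without Large White replicate 1 it differed by 0.0062. Whether the bright end of the scale compressed its values was not tested. ATP2A2, the slow-fibre pump, differed by 1.26 ± 0.76 in its brightest probe set, which was 11.08 on Large White replicate 1 against 13.97 to 14.54 on all others. The 3 dimmer ATP2A2 probe sets had the opposite sign, at -0.83, -0.36 and -1.41, so the direction for ATP2A2 depends on the probe set. All 4 genes were positive in the list, with a median of 1.41, and none passed. The median was 0.33 without Large White replicate 1.

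At the cell surface, ATP2B1, which pumps calcium out of the cell, read 9.44, 9.20 and 9.57 in Large White boars and 10.24, 10.68 and 10.69 in Northeastern Indigenous ones. Its difference of 1.13 ± 0.26 (SE; adjusted p of 0.224 in limma) did not rest on Large White replicate 1, since the dimmest array was Large White replicate 2. ORAI1, the pore of store-operated calcium entry, differed by 1.69 ± 0.64 (adjusted p of 0.246 in limma), and its breeds did not overlap either. Unlike ATP2B1, it was dimmest on Large White replicate 1, reading 6.61, 9.35 and 8.22 on replicates 1, 2 and 3. Without Large White replicate 1 it differed by 0.96. STIM2, a sensor of store calcium, differed by 0.28 ± 0.34 and ORAI3 by -0.24 ± 0.36. Of 12 genes in that list 4 were measured, 3 of them positive.

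The kinase list, with 9 of 16 genes measured, placed CAMK2G among its relatives. CAMK2B read 2.29, 7.85 and 6.57 on Large White replicates 1, 2 and 3 and 8.19, 7.56 and 7.87 on the Northeastern Indigenous arrays, 5.58 log2 units under on Large White replicate 1, where its reading was below the filter level. CAMK2D, the delta subunit, read 10.30, 12.95 and 11.92 and then 12.32, 12.39 and 12.49, a drop of 2.10 on that array, close to the 2.30 of CAMK2G. With 50 added to every intensity the distances on that array were 2.38 for CAMK2B, 2.06 for CAMK2D and 2.18 for CAMK2G, so the larger drop of the beta subunit depended on the scale of a dim reading. Their breed differences were 2.31 ± 1.29 for CAMK2B and 0.68 ± 0.61 for CAMK2D (SE), and neither passed.

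Calcineurin, the calcium-activated phosphatase, was read through its catalytic subunits. PPP3CB differed by 1.09 ± 0.58 (SE), reading 10.87, 13.36 and 12.62 in Large White boars and 13.47, 13.36 and 13.30 in Northeastern Indigenous ones, while PPP3CA differed by 0.31 ± 0.29. Probe sets of PPP3CB gave 1.26, 1.09 and -0.47, so they did not all share a sign. PPP3CC, mentioned after its values were seen, differed by 1.69 ± 0.67, and by 0.87 without Large White replicate 1. Its breeds did not overlap, as in 9 of the 38 calcium genes. RCAN1, a calcineurin inhibitor that calcineurin itself induces, differed by -0.35 ± 0.38. The median of the kinase list was 0.68, with 6 of 9 genes positive, and 0.0091 without Large White replicate 1.

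Gene regulators downstream of these enzymes had positive differences in 6 of 6 measured of 12 listed, with a median of 0.81, and 0 passed. NFATC1 differed by 0.28 ± 0.51 (SE) and was brightest on Large White replicate 1. CREB1 differed by 0.70 ± 0.40, but a dimmer CREB1 probe set, under the filter, differed by -0.83 ± 0.94. MEF2A and MEF2D, transcription factors of muscle genes that CaMKII frees from repression, differed by 0.92 ± 0.44 and 1.01 ± 0.63 (SE). A dimmer MEF2A probe set differed by 1.73 ± 0.47 (adjusted p of 0.224 in limma), so the size for MEF2A depends on the probe set. PPARGC1A, the coactivator of mitochondrial genes that responds to calcium signals, differed by 2.71 ± 1.09, with 4.03 on Large White replicate 1 and 8.80 and 7.09 on replicates 2 and 3. HDAC5, a repressor of MEF2 factors that CaMKII-type kinases export from the nucleus, differed by 0.03 ± 0.28. The median of the list was 0.65 without Large White replicate 1. In the mitochondrial uptake list 3 of 7 genes were measured. MCUB, a subunit that damps the mitochondrial calcium channel, differed by -0.97 ± 0.33, MICU2 by 0.36 ± 0.38 and LETM1 by 0.16 ± 0.41. Of the 9 calcium genes without overlap between the breeds, 8 were higher in Northeastern Indigenous boars and 1, MCUB, was lower.

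**Figure D4:**
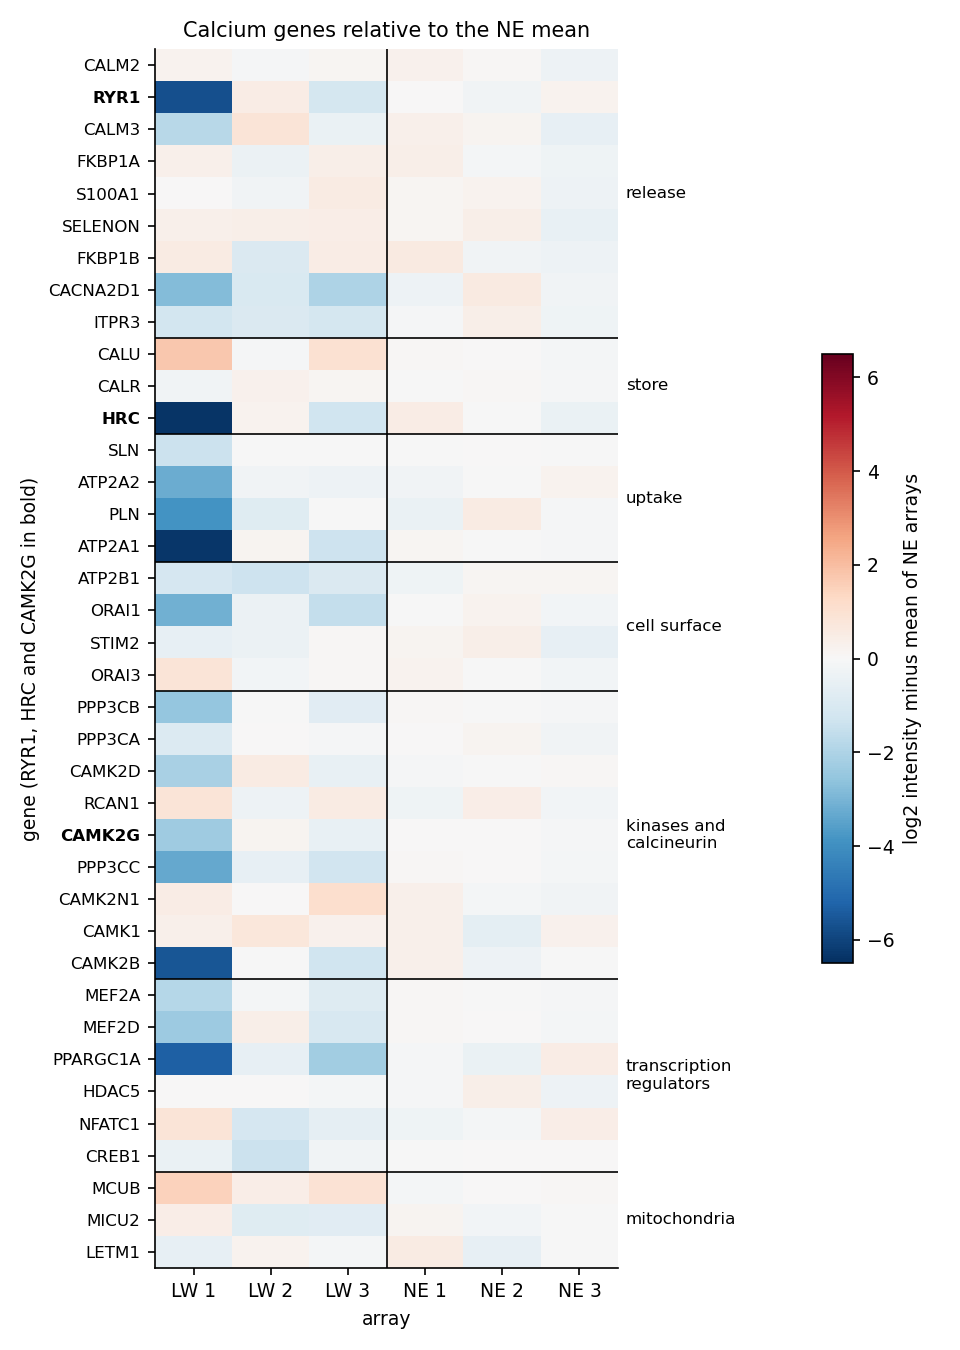
Log2 intensity minus the mean of the Northeastern Indigenous arrays (colour, blue below and red above) for 38 calcium genes (rows, grouped by list) on the 6 arrays (columns). RYR1, HRC, ATP2A1, CAMK2B and PPARGC1A are more than 5 log2 units under on Large White replicate 1 (LW 1), while CALM2, FKBP1A and CALR are within 1 of the mean there.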

How the data were processed

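The deposited values are linear intensities, a single value for each probe set of an array. Per the labels' protocols, biotin-labelled cRNA from total RNA was put on the GeneChip for pig. How the intensities were summarized is not given in the sources used here. The mean of each array, with 2% of values trimmed at each end, was 500.1 to 500.2. The deposited arrays thus already shared a common scale. All intensities were above 0, and the number of arrays limits the precision. Of 24123 probe sets, 124 controls were left out. Gene symbols came from the platform annotation: 10069 probe sets had 1 symbol, 198 several and 13732 none. The genome build is not given, so no coordinates are printed, and no sequences were used here.

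Log2 intensities were quantile normalized, since array medians spanned 0.35 log2 units, above a limit of 0.2. Probe sets whose mean log2 intensity reached the 40th percentile (5.85) were kept, 14399 in all, covering 5438 named genes, each represented by its brightest probe set. The breeds were compared with limma 3.58.1 in R 4.3.3 (lmFit, eBayes with intensity trend, two-sided), with Benjamini-Hochberg adjustment over all kept probe sets. The fit was tested on simulated data. Those data gave a probe set the same SD in both breeds, so they do not cover the unequal spread seen here. Errors are SDs or limma's SE. That SE and its interval assume the same variance in both breeds, though RYR1, HRC and CAMK2G varied more in Large White boars. Alternatives were other scalings, filters, priors, weights, the replicate block and left-out arrays.

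The genes and lists were chosen with earlier results of these data known. Named genes are all probe sets of RYR1, HRC and CAMK2G, the 4 brightest measured genes of each calcium list, the 5 nearest profiles per gene, and cell type markers. CACNA2D1, ITPR3, PPP3CC, NFATC1, CREB1, FHL1 and the calcium genes under the filter were added after their values were seen.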

Additional observations from a re-analysis of the deposited data

How the results depend on the processing

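Leaving out both Large White replicates 1 and 3 was chosen after seeing the data; all other alternatives were planned. The 4 differences changed sign only with those arrays out: -0.47 for RYR1, -0.23 for HRC, -0.18 and -0.35 for CAMK2G (Ssc.2491.1.S1_at and Ssc.5879.4.S1_a_at), and -0.42 (RYR1) and -0.18 (HRC) relative to the sarcomere list. Leaving out 1 array gave 0.34 to 3.43 for RYR1, 0.54 to 3.85 for HRC, 0.15 to 1.39 and 0.37 to 1.67 for CAMK2G. Relative to the sarcomere list it gave -0.0094 to 1.01, 0.20 to 1.42, -1.03 to -0.20 and -1.07 to 0.024, and the offset of 50 gave -0.024 for HRC. Probe sets called numbered 0 to 4421 with 1 array left out, 1 with arrays centred on their medians or at an adjusted p under 0.1, 2706 at an unadjusted p under 0.05, and 8499 with array weights, whose estimation stopped before converging and put 42.0 on Large White replicate 3. Those weights gave HRC 1.43 (adjusted p = 0.046 in limma) and CAMK2G Ssc.5879.4.S1_a_at 1.11 (0.0018). Calcium genes called numbered 0 to 11, and those with a positive difference 25 to 30, with 1 array left out. The replicate block left all 4 probe sets uncalled (limma adjusted p from 0.386 to 0.423). Same-numbered animals of the breeds gave r = -0.02, -0.16 and -0.11 over probe sets for deviations from their breed mean. Differently numbered animals gave -0.09 to 0.13. No pairing by number was seen, but with 3 arrays per breed these values cannot decide whether the numbers pair the samples.

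List medians near 0 changed sign. The release median was 0.20 as deposited, 0.34 median centred, 0.40 without a filter, 0.12 with all probe sets averaged, 0.21 without Large White replicates 1 and 3, and -0.18 to 0.19 with 1 array left out. The store median was 0.68 without a filter and -0.21 to 0.037 with 1 array left out. The mitochondrial median was -0.41 without a filter, -0.97 under the 60th percentile filter, -0.20 without Large White replicates 1 and 3, and -0.11 to 0.42 with 1 array left out. The kinase median was -0.035 without Large White replicates 1 and 3. Brightness limits HRC, CAMK2B and PPARGC1A on Large White replicate 1, which lay below the filter level there.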

Other observations

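The other ryanodine receptors were dim on all 6 arrays. The 3 probe sets of RYR2, the receptor of heart muscle, read log2 intensities from 1.56 to 5.44, and the 4 probe sets of RYR3, the receptor found at low level in many tissues, read 1.91 to 6.15. All 7 of these probe sets had a mean under the filter level of 5.85, so they were given no call. CASQ2, the calsequestrin of slow fibres and heart, also fell under it with both of its probe sets (1.85 to 6.18), as did ITPR1 (1.81 to 4.89), the calcium exchanger SLC8A1 (2.03 to 4.35), ATP2A3 (0.60 to 5.07) and the mitochondrial exchanger SLC8B1 (0.66 to 6.16). Probe sets differ in how brightly they report a transcript, so these values do not rank the receptors.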
